A study of Mus musculus with 6 samples.

Results

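The genes described here encode proteins that take part in the splicing of nuclear pre-mRNA. They are the SR proteins, the heterogeneous nuclear ribonucleoproteins (hnRNPs), the Sm and other small nuclear ribonucleoprotein (snRNP) proteins, the SF3a and SF3b subunits, and U2AF. They were chosen by name alone, as every probe of the array table whose gene name began with SFRS, HNRP, HNRNP, SF3A, SF3B, SNRPA, SNRPB, SNRPD, SNRPE, SNRPF, SNRPG or U2AF. That gave 105 of 46643 probes (0.225%), which carried 54 of 34325 gene names. Under current names, 20 of the 54 matched a mouse gene symbol, 33 matched a synonym, and SFRS10 matched synonyms of both Srsf2 and Tra2b and keeps its name on the array. The SFRS prefix also brought in genes that are not classical SR proteins, among them Scaf4, Scaf11, Clasrp, Srek1, Sugp2 and Sfswap.

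The arrays were hybridised with RNA of CCE cells, an established mouse embryonic stem cell line, grown without feeders in serum and LIF. All 3 groups were transfected with the pSuper.puro plasmid and kept in puromycin at 1.5 µg/ml for 4 days, starting 18 h after transfection. The plasmid expressed a short hairpin RNA (shRNA) against GFP in the control group, Prmt6 shRNA1 in another and Prmt6 shRNA2 in the third, with 2 arrays per group. These were transient transfections, and nothing in the labels shows that the arrays of a group came from separate cultures, so a p-value here measures only the spread between these samples.

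SR proteins bind exons through RNA recognition motifs and recruit the spliceosome through a domain rich in arginine and serine. hnRNPs coat nascent transcripts, often block nearby splice sites, and many carry boxes of arginine and glycine. The Sm proteins form the ring around the small nuclear RNAs, SF3a and SF3b belong to the U2 snRNP that grips the branch point, and U2AF reads the polypyrimidine tract and the end of the intron. Arginines in many of these proteins are methylated. Prmt6, the enzyme targeted by both hairpins, adds asymmetric dimethyl marks, while the Sm proteins are known as substrates of Prmt5, which adds symmetric ones. The arrays measured transcripts of these genes, not their proteins, methylation or splicing products.

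A bead array reports the brightness of each probe. The values given first for a gene are the authors' background-subtracted intensities, and each difference is on a log2 scale after quantile normalization (1 unit is 2-fold). A probe was detected when its detection p was under 0.01, and was tested when detected on at least 2 of the 6 arrays. This left 62 of the 105 member probes, for 42 of the 54 genes, among 9138 probes in all. Of the 43 others, 40 were detected on no array. The 12 genes with no tested probe were Hnrnpf, Hnrnpr, Hnrnph2, Hnrnpd, Hnrnpa3, Srek1, Sfswap, Sf3a2, Snrpe, Snrpb2, Snrpg and SFRS10. Several of these are core parts of the spliceosome, and a dim probe says nothing more than that the probe was dim.

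The sequences upstream of a few members are shown as examples, and these members do not span the full range of the measured differences. Hnrnpa0 had the lowest difference among member probes of the less variable probe series. U2af1 was lower on all 4 Prmt6 shRNA arrays in normalized values, and Hnrnpc was the brightest member and differed little. Each run covers 250 bases before to 50 after the RefSeq start (GRCm38.p6, 300 bases, minus strand, read 5′ to 3′), and capitals mark matches to the motifs named below. They lie at chr13:58128507-58128806 for Hnrnpa0, chr17:31658715-31659014 for U2af1 and chr14:52103972-52104271 for Hnrnpc.
Hnrnpa0: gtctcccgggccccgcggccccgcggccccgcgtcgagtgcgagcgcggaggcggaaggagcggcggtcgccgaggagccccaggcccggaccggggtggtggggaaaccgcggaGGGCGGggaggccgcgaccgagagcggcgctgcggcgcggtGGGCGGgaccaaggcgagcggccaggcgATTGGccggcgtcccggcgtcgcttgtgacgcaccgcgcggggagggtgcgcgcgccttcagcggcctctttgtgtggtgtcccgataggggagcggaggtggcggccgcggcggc
U2af1: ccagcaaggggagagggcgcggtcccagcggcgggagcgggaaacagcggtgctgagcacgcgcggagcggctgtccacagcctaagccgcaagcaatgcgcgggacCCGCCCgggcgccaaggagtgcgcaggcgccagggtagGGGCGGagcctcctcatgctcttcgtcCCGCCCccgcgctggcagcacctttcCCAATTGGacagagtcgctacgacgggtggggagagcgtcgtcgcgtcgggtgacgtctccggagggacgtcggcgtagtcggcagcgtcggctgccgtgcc
Hnrnpc: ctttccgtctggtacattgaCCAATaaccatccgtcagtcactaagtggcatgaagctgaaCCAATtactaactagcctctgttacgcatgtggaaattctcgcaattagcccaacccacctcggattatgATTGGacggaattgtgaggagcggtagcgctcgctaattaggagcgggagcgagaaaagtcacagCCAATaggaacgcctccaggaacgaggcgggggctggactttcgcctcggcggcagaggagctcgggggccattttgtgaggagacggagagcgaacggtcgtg
The Hnrnpa0 run held 2 GC boxes, 1 CCAAT box and 52 CG dinucleotides. The U2af1 run held 3 GC boxes, 2 overlapping matches to the CCAAT box on opposite strands, and 40 CG dinucleotides. The Hnrnpc run held 4 CCAAT boxes, no GC box and 22 CG dinucleotides.

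Of the 54 member genes, 47 had a promoter in the RefSeq table, 63 promoters in all, some of which overlap because one gene had several starts. Every motif was searched on both strands, and matches of different motifs can share bases. The GC box GGGCGG stood in 71.4% of the member promoters and in 35.7% of all 32851 promoters of the table. The ETS motif CCGGAAG stood in 34.9% of them and in 8.86% of all. The CCAAT box, spelled CCAAT, stood in 44.4% against 37.4%. The E-box CACGTG stood in 12.7% against 7.15%. The TATA box TATAAA stood in 9.52% against 13.6%. The 36 of these genes with a tested probe had 47 promoters. Among those the shares were 70.2% for the GC box, 23.4% for ETS, 46.8% for the CCAAT box, 8.51% for the E-box and 12.8% for the TATA box. Over all member promoters the median G and C content was 61% against 52.7%, and the median number of CG dinucleotides was 26 against 7. A match is a description of the letters in this window, and motif content was not set against the array values.

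No splicing factor or hnRNP probe passed the test in any comparison. With both Prmt6 hairpins set against GFP shRNA, 0 of 62 member probes were called higher and 0 lower at an adjusted p under 0.05 (limma, Benjamini-Hochberg over all 9138 probes), where 29 probes in all were called higher (0.317%) and 0 lower (0%). With Prmt6 shRNA1 alone, 0 members were called where 0.547% of all probes were (0.536% higher and 0.0109% lower), and with Prmt6 shRNA2 alone 0 members where 0% of all probes were. At an unadjusted p under 0.05 the member counts were 0 higher and 6 lower with both hairpins (over all probes 8.24% higher and 4.54% lower). They were 0 higher and 5 lower with shRNA1 (over all probes 6.3% and 3.9%), and 0 higher and 5 lower with shRNA2 (over all probes 9.17% and 5.85%). The smallest adjusted p of any member was 0.0794 with both hairpins, 0.166 with shRNA1 and 0.0953 with shRNA2, and all 3 belonged to Hnrnpa0.

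The differences were small and mostly below 0. Across the 62 probes the median log2 difference of both hairpins against GFP shRNA was -0.21, against -0.02 over all tested probes, and 50 of 62 lay below 0 (80.6%, against 52.5%). With shRNA1 the median was -0.21 (all probes -0.06) and 54 of 62 lay below 0 (against 56.7% of all probes). With shRNA2 it was -0.16 (all probes 0.03) and 41 lay below 0 (against 47.3%). These 2 comparisons share the GFP shRNA arrays. Taken array by array, the median distance of the members from the GFP shRNA mean was 0.04 and -0.04 with GFP shRNA, -0.20 and -0.25 with shRNA1, and -0.21 and -0.10 with shRNA2. All 4 Prmt6 shRNA arrays thus lay below both control arrays, Prmt6 shRNA2 replicate 2 by the least. The same medians over all tested probes were 0.03 and -0.03, -0.05 and -0.01, and -0.02 and 0.10. Control values mirror each other because each is a distance from the controls' own mean. The members were brighter, with a median intensity of 1600 and 1119 with GFP shRNA, against 471.6 and 358.7 over all tested probes. The shares and medians over all probes given here were not matched for brightness.

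Precision differed between the probes. The probe IDs fall into 2 series by their numbers, called first and second here, and the second was poorly detected on Prmt6 shRNA2 replicate 2 (935 probes, against 1302 to 2836 on the other arrays). The SD of the difference between the Prmt6 shRNA2 replicates was 0.27 over first-series member probes and 1.48 over the 8 second-series ones. That 1.48 rested largely on the Scaf4 probe, at log2 values of 10.01 and 5.99, the widest gap of the 8. The SD over second-series members was 0.56 with GFP shRNA and 0.64 with shRNA1, against 0.32 and 0.44 over first-series ones. The first-series members alone had a median of -0.19, against 0.05 over all first-series probes, and the second-series members had -0.43, against -0.31. Array by array, the first-series members lay at 0.05 and -0.05 with GFP shRNA and at -0.17 and -0.21 with shRNA1. With shRNA2 they lay at -0.18 and -0.06, so Prmt6 shRNA2 replicate 2 was nearly level with the lower control. Beside this, the number of detected probes ranged from 5782 to 10928 across arrays, and 51 to 65 of the 105 member probes were detected.

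With both hairpins, 47 of 62 member probes had a 95% interval that lay wholly within 2-fold either way (75.8%, against 66.8% of all probes). With shRNA1 the count was 40 (against 58.8% of all probes) and with shRNA2 it was 46 (against 54.2%). Only 2 member probes, of Hnrnpa0 and Scaf4, differed by 2-fold or more with both hairpins (3.23%, against 5.89% of all). The counts were 1 with shRNA1 (against 3.05%), 4 with shRNA2 (against 11.2%) and 2 between the hairpins (against 8.37%). For 17 member probes of 13 genes all 4 Prmt6 shRNA arrays lay below both GFP shRNA arrays (27.4%, against 11.4% of all probes), and for 0 they lay above (against 13%). Among the 50 member probes detected on every array, 14 lay below, where 10.9% of all such probes did. With shRNA1 alone 31 member probes lay below both controls (50%, against 22%) and 1 above (against 19.4%), and with shRNA2 alone 26 lay below (41.9%, against 24.4%) and 4 above (against 27.9%). The 17 probes were 6 SR, 7 hnRNP, 3 Sm or snRNP and 1 U2AF probe, and none of SF3a or SF3b.

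**Figure D1:**
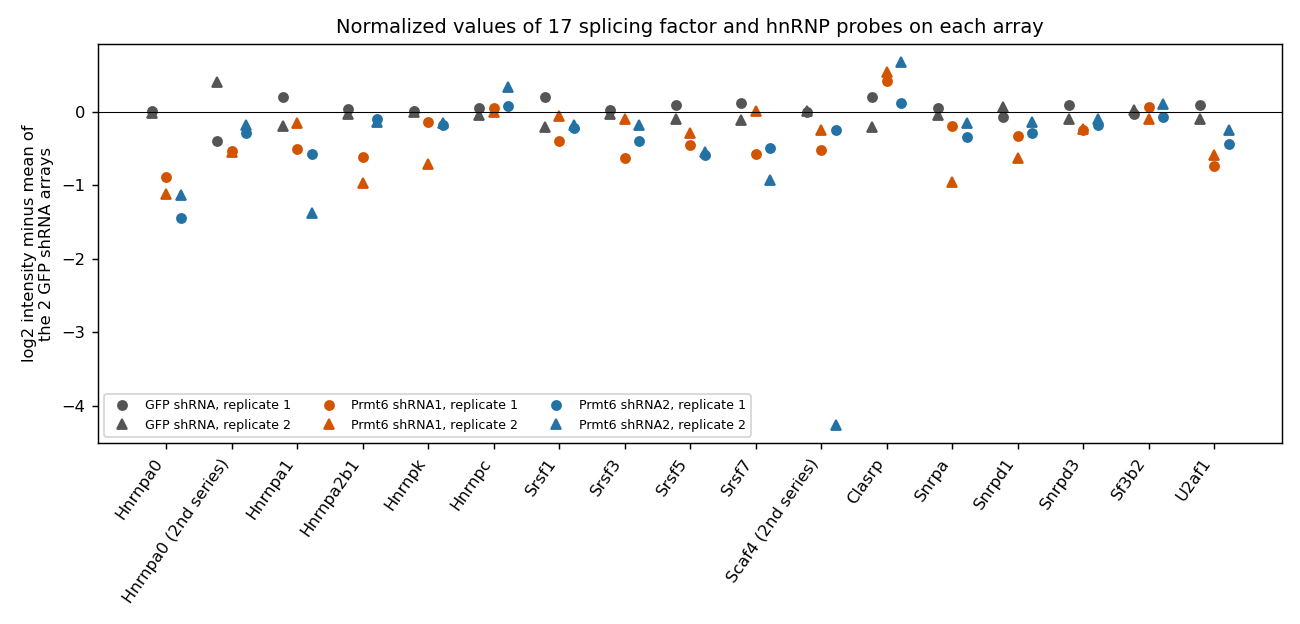
Normalized log2 intensity on each array of 17 member probes, both probes of Hnrnpa0 and the brightest probe of 15 other genes that the text describes, relative to the mean of that probe's GFP shRNA arrays. Circles are replicate 1 and triangles replicate 2. The point near the bottom is Scaf4 on Prmt6 shRNA2 replicate 2; the first Hnrnpa0 probe and U2af1 have all 4 Prmt6 shRNA points below the controls, and Sf3b2 has its points around 0.

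Among the SR proteins and SR-related factors, 0 of 16 tested probes of 12 genes were called, 14 of 16 lay below 0, and the median difference was -0.25 with both hairpins, -0.21 with shRNA1 and -0.28 with shRNA2. Srsf1, which promotes recognition of weak exons, had intensities of 6455.7 and 3785.7 with GFP shRNA, 2418.1 and 5680.9 with shRNA1, and 4686.5 and 3300.8 with shRNA2. The groups overlapped, and the difference was -0.22 ± 0.20 (limma SE, 95% interval -0.71 to 0.28, adjusted p = 0.689). Srsf2, which binds exonic enhancers, had 7807.3 and 6020.7, then 4104 and 6151, then 5944.2 and 4798.5 in the shRNA2 pair. After normalization all 4 Prmt6 shRNA arrays were below both controls, by -0.22 ± 0.17 (-0.64 to 0.20, adjusted p = 0.632).

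Srsf3, the smallest of the classical SR proteins and a partner in mRNA export, was measured by a pair of probes that gave nearly the same value. The brighter one had 734.1 and 538.9 with GFP shRNA, 259.4 and 690.7 with shRNA1, and 538 and 388.7 with shRNA2, a difference of -0.33 ± 0.21 (adjusted p = 0.575), and the other gave -0.31 ± 0.20. Both were lower on all 4 Prmt6 shRNA arrays in normalized values. Srsf5 was also on that side, with log2 values of 12.83 and 12.64 with GFP shRNA, 12.28 and 12.44 with shRNA1, and 12.14 and 12.18 with shRNA2. Its difference was -0.48 ± 0.16 (95% interval -0.87 to -0.08, adjusted p = 0.309), while a second Srsf5 probe gave -0.21 ± 0.17. Srsf9 had -0.28 ± 0.15 (adjusted p = 0.518); Srsf5 and Srsf9 are named here after their values were seen.

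Srsf7, which like Srsf3 binds the export receptor, had 1530.5 and 987.3 with GFP shRNA, 527.4 and 1518.9 with shRNA1, and 998.6 and 462.3 with shRNA2. These ranges overlapped, and the difference was -0.50 ± 0.24 (-1.11 to 0.12, adjusted p = 0.479). The lowest SR-related value, that of Scaf4, rested on a single array. Scaf4, which binds the tail of RNA polymerase II, had log2 values of 10.25 and 10.26 with GFP shRNA, 9.74 and 10.01 with shRNA1, and 10.01 and 5.99 with shRNA2. The difference of -1.32 ± 1.06 (adjusted p = 0.652) became -0.32 without Prmt6 shRNA2 replicate 2 and -2.33 without Prmt6 shRNA2 replicate 1, where it was called (adjusted p = 0.00565). The highest SR-related values were those of Clasrp, an SR-related factor that associates with a CLK kinase, at 0.44 ± 0.23 (adjusted p = 0.51), and Sugp2 at 0.00 ± 0.17.

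**Figure D2:**
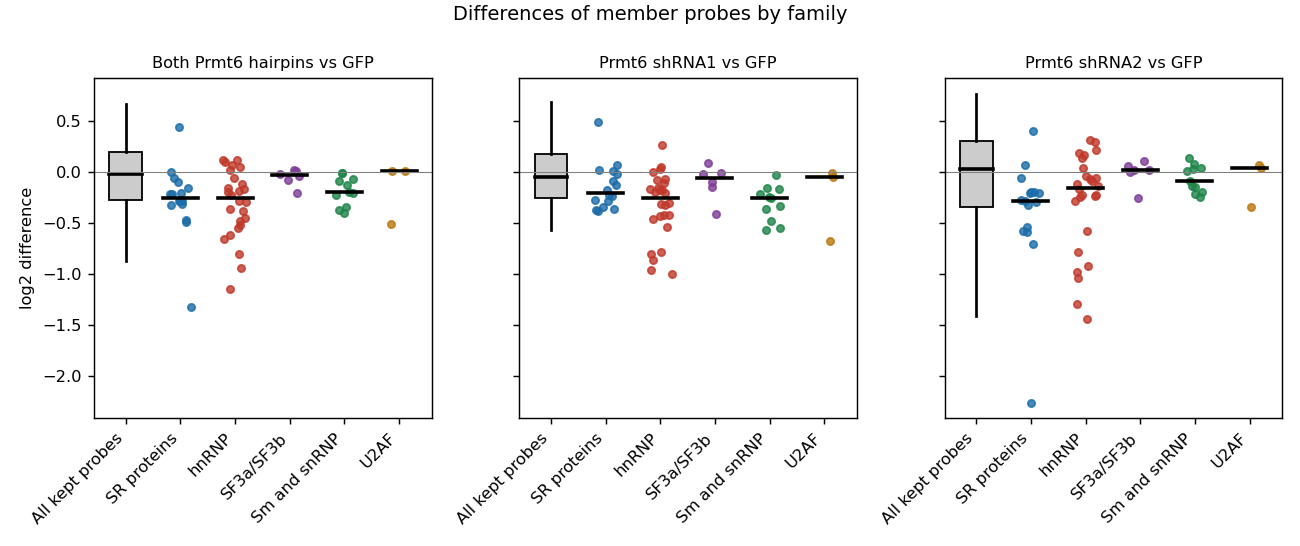
Log2 difference of both Prmt6 hairpins against GFP shRNA (left), and of each hairpin alone (middle and right), for every tested member probe by family, beside all 9138 tested probes. Points are probes and bars are family medians; the box gives the median and quartiles of all tested probes and its whiskers the 5th and 95th percentiles. The SR, hnRNP and snRNP medians (-0.25, -0.26 and -0.20) in the left panel lie below the median of all probes (-0.02), and those of SF3a/SF3b and U2AF (-0.03 and 0.01) lie near it.

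Among the hnRNPs, 0 of 26 tested probes of 14 genes were called, 20 lay below 0, and the median was -0.26 with both hairpins, -0.26 with shRNA1 and -0.16 with shRNA2. Hnrnpa0, an RNA-binding protein of the A/B group that binds AU-rich elements, had the lowest adjusted p. Its first-series probe had 487.8 and 364 with GFP shRNA, 150.9 and 196.2 with shRNA1, and 168.6 and 146.6 with shRNA2. It was detected on both GFP shRNA arrays and on Prmt6 shRNA1 replicate 2, and on no Prmt6 shRNA2 array. In normalized values the controls lay at 8.66 and 8.63, above 7.76, 7.53, 7.20 and 7.51 on the Prmt6 shRNA arrays. The difference was -1.15 ± 0.17 (2.22-fold lower, 95% interval -1.59 to -0.71, unadjusted p = 0.000838, adjusted p = 0.0794). With shRNA1 alone the adjusted p was 0.166, and with shRNA2, where the probe was not detected, it was at least 1.83-fold lower (adjusted p = 0.0953).

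The Hnrnpa0 call depended on the setting. With both hairpins the adjusted p of this probe was 0.0178 with first-series probes alone and 0.0299 without Prmt6 shRNA2 replicate 1. A brighter second-series probe of the gene gave 788.7 and 1044 with GFP shRNA, 399.2 and 735.1 with shRNA1, and 847.4 and 571.9 with shRNA2, and its normalized groups overlapped, with a difference of -0.39 ± 0.25 (adjusted p = 0.59). The cause of the difference between the probes was not tested.

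Hnrnpk, which binds runs of cytosine through KH domains, was the one gene with 3 tested probes that all lay below both controls on all 4 Prmt6 shRNA arrays in normalized values. Its brightest probe had 2783 and 2170.9 with GFP shRNA, 1418.7 and 1805.5 with shRNA1, and 2439.6 and 1685 with shRNA2. That probe gave -0.30 ± 0.21 (adjusted p = 0.607), and the others gave -0.52 ± 0.21 and -0.55 ± 0.19 (adjusted p = 0.399 and 0.331). With shRNA1 the 3 probes gave -0.43, -0.81 and -0.86, and with shRNA2 -0.17, -0.23 and -0.24, but the difference between the hairpins did not pass the test (lowest adjusted p = 0.464).

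Hnrnpa2b1, which binds many RNAs and has a glycine-rich tail, had 11574.2 and 9097.6 with GFP shRNA, 4267.7 and 6077.9 with shRNA1, and 10092.1 and 7082.3 with shRNA2. The shRNA1 arrays were the low pair, with normalized values of 12.61 and 12.26 against 13.26 and 13.19 in the controls and 13.12 and 13.09 with shRNA2. The difference was -0.79 ± 0.20 with shRNA1 (95% interval -1.28 to -0.30, adjusted p = 0.234) and -0.12 ± 0.20 with shRNA2 (adjusted p = 0.769), and the 2 hairpins differed by 0.67 ± 0.20 (adjusted p = 0.413). That was the smallest adjusted p for any member between hairpins. The gene's other tested probes went the other way between the hairpins, at -1.29 ± 0.44 (adjusted p = 0.462) and -0.85 ± 0.66 (adjusted p = 0.577). Each of these was dim, detected on 1 GFP shRNA array and 1 shRNA1 array and on no shRNA2 array, so their shRNA2 levels are not well above background.

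Hnrnpa1, the best known repressor of splice sites in this group, had 1832.3 and 1070.8 with GFP shRNA, 628.5 and 1549 with shRNA1, and 1070.8 and 378.4 with shRNA2. The shRNA2 arrays lay below both controls after normalization, but the shRNA1 arrays did not, and the difference with both hairpins was -0.65 ± 0.29 (-1.38 to 0.07, adjusted p = 0.432). Hnrnpul2, the other low value in the family, had second-series probes only. The probe detected on all 6 arrays gave -0.36 ± 0.17 (adjusted p = 0.457), with all 4 Prmt6 shRNA arrays below the controls. The dimmer probe gave -0.94 ± 0.34 (adjusted p = 0.345), but its detection was limited to the 2 controls and 1 shRNA1 array, with none under shRNA2, and its signal sets no lower limit on a fold with shRNA2.

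Hnrnpc and Hnrnpab, the brightest members, had intervals that held 0. Hnrnpc, which binds runs of uridine and competes with U2AF at cryptic sites, had 20247.9 and 15960.9 with GFP shRNA, 11640.6 and 18449 with shRNA1, and 18747 and 15733.7 with shRNA2. Its normalized values of 14.03 and 13.93, 14.03 and 13.98, and 14.06 and 14.32 overlapped, with a difference of 0.12 ± 0.16 (95% interval -0.29 to 0.52, adjusted p = 0.795). A second Hnrnpc probe gave 0.11 ± 0.18, and a second-series probe gave -0.20 ± 0.19 (adjusted p = 0.689), with -0.31 ± 0.22 under shRNA1, where both arrays lay below the controls. Hnrnpm gave -0.12 ± 0.16 (-0.52 to 0.28) and the 4 probes of Hnrnph1 gave -0.17 to -0.29. Hnrnpu, the scaffold attachment factor, was dim and gave -0.16 ± 0.40. The bright probe of Hnrnpab gave 0.01 ± 0.22 (-0.53 to 0.55), and a dim second-series probe detected on 2 arrays gave -0.48 ± 0.33.

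**Figure D3:**
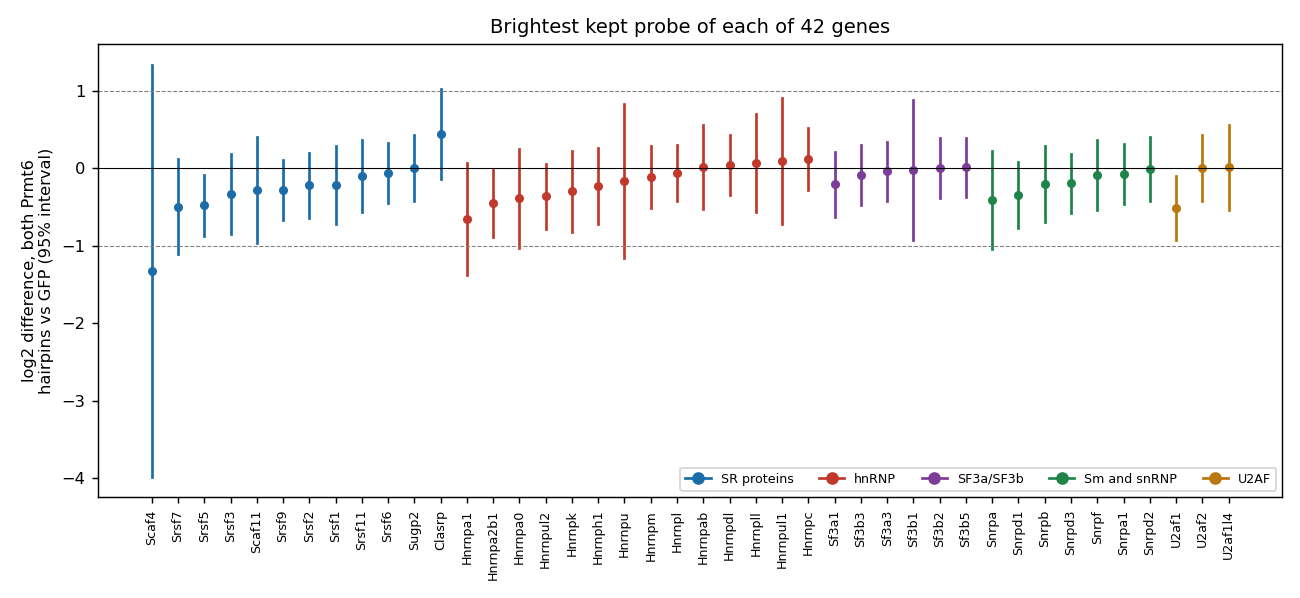
Log2 difference of both Prmt6 hairpins against GFP shRNA with its 95% interval from limma, for the brightest tested probe of each member gene. Points are estimates and lines are intervals; the dashed marks at 2-fold show that most intervals lie within it.

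The Sm and other snRNP proteins gave 0 of 11 called probes of 7 genes, and all 11 lay below 0 with both hairpins, with a median of -0.20. With shRNA1 all 11 lay below 0 (median -0.26), and with shRNA2 6 of 11 did (median -0.09). All 11 were higher with shRNA2 than with shRNA1, with a median difference of 0.26, where 54.8% of all probes were, and none of the 11 was called. Snrpd1, a ring protein methylated on arginine by Prmt5, had 3330.4 and 2869.9 with GFP shRNA, 1566 and 2391 with shRNA1, and 2879.4 and 2168.6 with shRNA2. The difference was -0.35 ± 0.17 (-0.78 to 0.08, adjusted p = 0.479). Snrpd3, likewise a Prmt5 substrate, had 9232.8 and 6557.6, then 4182.1 and 7565.7, then 7399.3 and 5379.2, and gave -0.20 ± 0.15 (adjusted p = 0.642). After normalization both were below the controls on all 4 Prmt6 shRNA arrays, though their intensities overlapped. For Snrpd3 the margin was lost in rounding on Prmt6 shRNA2 replicate 2, at 12.74 against 12.74 on GFP shRNA replicate 2.

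Snrpd2, another ring protein, gave -0.01 ± 0.17 (95% interval -0.43 to 0.40), from 11870.9 and 9363.5 with GFP shRNA, 7554.4 and 10738.3 with shRNA1, and 10368.3 and 8631.3 with shRNA2. Snrpf gave -0.09 ± 0.18 and Snrpa1, a U2 snRNP protein, -0.07 ± 0.15. The 3 probes of Snrpb, the third ring protein known to be methylated by Prmt5, gave -0.21 ± 0.20, -0.23 ± 0.23 and -0.01 ± 0.22. Snrpa, which binds a stem loop of U1 RNA, gave -0.41 ± 0.25 (adjusted p = 0.568) on its brightest probe, with its other probes at -0.38 ± 0.21 and -0.13 ± 0.17.

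SF3a and SF3b, which hold the branch point in the U2 snRNP, had 0 of 6 probes called, a median of -0.03, and no probe on which the Prmt6 shRNA arrays were all lower or all higher than the controls. Sf3b2 had 4190.5 and 3407.8 with GFP shRNA, 2591.1 and 4274.6 with shRNA1, and 3988.2 and 3140.9 with shRNA2, a difference of 0.00 ± 0.16 (95% interval -0.39 to 0.39). Sf3a3 gave -0.04 ± 0.15, Sf3b3 -0.09 ± 0.15 and Sf3b5 0.01 ± 0.15. Sf3a1 had 1820.8 and 1242.3 with GFP shRNA, 742.6 and 1324.7 with shRNA1, and 1562.2 and 1259.9 with shRNA2, and gave -0.21 ± 0.17 with both hairpins (adjusted p = 0.651), -0.42 ± 0.19 with shRNA1 (adjusted p = 0.572) and 0.00 ± 0.19 with shRNA2 (adjusted p = 0.999). Sf3b1, the scaffold of SF3b, was read by a dim second-series probe, at -0.02 ± 0.36.

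Of the 3 U2AF genes with a tested probe, U2af1, the small subunit that reads the last bases of the intron, was the one below the controls. It had 2305.8 and 1543.2 with GFP shRNA, 704.8 and 1512.1 with shRNA1, and 1565.2 and 1188.2 with shRNA2. The normalized values were 10.91 and 10.72, 10.07 and 10.22, and 10.37 and 10.57, so all 4 Prmt6 shRNA arrays were below both controls. The difference was -0.51 ± 0.16 (-0.92 to -0.10, unadjusted p = 0.0234, adjusted p = 0.299). U2af2, the large subunit that binds the polypyrimidine tract, gave 0.01 ± 0.17 (-0.42 to 0.43), and U2af1l4, a relative of U2af1, 0.01 ± 0.22. The difference between U2af1 and U2af2 was not tested.

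**Figure D4:**
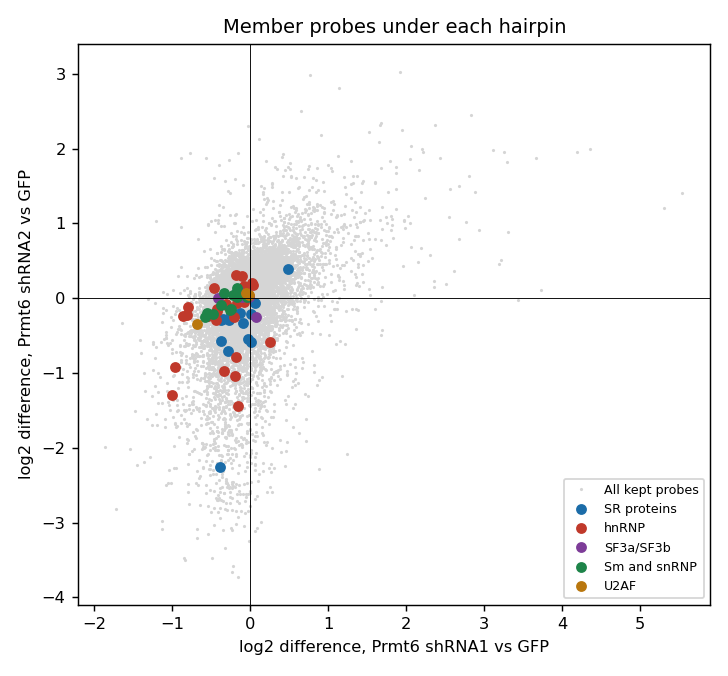
Log2 difference of Prmt6 shRNA1 (horizontal) and of Prmt6 shRNA2 (vertical) against GFP shRNA for all 9138 tested probes in grey and the 62 member probes coloured by family. Both axes share the same GFP shRNA arrays; the members lie close to the origin and mostly to the left of it.

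Compared with each other, the 2 Prmt6 hairpins gave 0 of 62 member probes called (0.0328% of all probes were called, all lower with shRNA2). At an unadjusted p under 0.05, 2 were higher and 1 lower (over all probes 5.31% and 4.83%). The median difference of shRNA2 minus shRNA1 was 0.10, against 0.05 over all probes, and 43 of 62 probes were higher with shRNA2 and 19 lower (against 54.8% and 45.2% of all). Both shRNA2 arrays lay above both shRNA1 arrays for 19 member probes (against 24.7%) and below them for 8 (against 18.3%). The interval lay within 2-fold for 43 of 62 (69.4%, against 57.1% of all). By family the median was -0.11 for the SR group, 0.17 for the hnRNPs and 0.26 for the snRNP proteins.

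Other splicing genes, in lists not drawn from the rule, also had no called probe. Across 60 probes of 41 other spliceosome subunits the median with both hairpins was -0.18, and across 48 probes of 32 other splicing regulators -0.19. Of these, 44 of 60 and 35 of 48 lay below 0, where 52.5% of all probes did. SR protein kinases, transport factors and partners had a median of -0.12 over 17 probes, and factors of snRNP assembly and Sm methylation -0.07 over 15. In the last list Prmt5 had 3 tested probes at -0.39 ± 0.20, -0.56 ± 0.24 and -0.47 ± 0.21 (adjusted p = 0.498, 0.424 and 0.436).

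The signal of both Prmt6 probes was lower on each Prmt6 shRNA array than on the controls, but neither passed the test. One Prmt6 probe had 389.8 and 266.1 with GFP shRNA, 48.3 and 147.6 with shRNA1, and 97.8 and -21.6 with shRNA2, a difference of -1.84 ± 0.38 (adjusted p = 0.135), and the other gave -1.48 ± 0.27 (adjusted p = 0.105). Both are second-series probes near background, detected on 3 and on 2 of the 6 arrays and on no shRNA2 array. With shRNA2 they are therefore given as limits, at least 1.40-fold and at least 1.06-fold lower (adjusted p = 0.147 and 0.123).

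Of 10 listed ES cell markers 7 had a tested probe, and the summed levels of the marker lists were as follows. The summed intensity of 13 probes of these 7 ES cell genes was 42940.3 and 28413.3 with GFP shRNA, and 15694.3 to 27474.1 on the Prmt6 shRNA arrays. Of these probes 0 of 13 were called, with a median difference of -0.67. For trophectoderm markers (9 probes of 7 of 10 genes) the sum was 3466.4 and 2552.2 with GFP shRNA and 4901 to 22434.1 on the Prmt6 shRNA arrays, with 4 of 9 called higher with both hairpins, 4 with shRNA1 and 0 with shRNA2. Endoderm markers (5 probes, 5 of 10 genes) ran from 3889.8 and 4620.1 to between 5012.3 and 10827.5. Fibroblast markers (4 probes, 3 of 11 genes) ran at 3410.8 and 5679.5, then at 4231.7 to 9173.2, with 1 of 4 called higher with shRNA1. The 3 genes were Vim, Acta2 and Fn1, and the 8 other listed fibroblast genes were detected on no array. Neuroectoderm markers (4 probes, 4 of 8 genes) ran at 7880.6 and 9514.7, then at 3374.9 to 5952.1. After normalization 2 of these 4 probes lay below 0 and 2 above with both hairpins. All these sums are of intensities before normalization, so they follow the brightest probes and the brightness of each array. The median intensity of all tested probes was 471.6 and 358.7 with GFP shRNA, and 260.2 to 472 on the Prmt6 shRNA arrays. The ES cell markers Tdgf1 and Fgf4 were detected on no array, and Dppa5a matched no probe. Eomes, Elf5 and Hand1 were detected on no array, nor were Col1a1, Col1a2, Sox7, Foxa2, Pax6 or Sox1. In bulk RNA fewer cells of a type and less RNA per cell cannot be told apart, and the part of these shifts in the splicing factor values was not tested.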

How the data were processed

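RNA was measured on 6 Illumina bead arrays of CCE cells, with 3 groups taken from the labels. The deposited table without normalization holds intensities from which the authors had already subtracted background, and per the file headers a detection score. The score ran from 0 to 1 and increased with intensity, so 1 minus the score was taken as the detection p-value. The authors also deposited log2 values, for which the submitters' processing notes name lumi. Its version, its transformation and the array build are not given in the sources used here. Background correction and quantile normalization used neqc (limma 3.58.1, R 4.3.3, offset 16). Probes detected (p under 0.01) on at least 2 of 6 arrays were kept, 9138 in all, each as its own feature. A group-means model over all arrays was fitted with lmFit and eBayes (prior degrees of freedom 2.49, residual 3), with two-sided p-values adjusted over all kept probes. Exact permutation tests cannot go below p = 0.133 (4 arrays against 2) or 0.333 (2 against 2). The fit was tested on simulated data. A probe not detected on any array of a group gives a fold limit, set on each such array by the lowest detected signal or the probe's own signal, whichever was larger. The number of arrays limits the precision.

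The members were found by gene name prefix, and members, lists, markers and the rule for named genes were chosen with earlier results of these data known. The rule took the 2 highest and 2 lowest probes of each family, the brightest probe of well known members, genes whose probes disagreed, Prmt6 and Prmt5. Other genes named were chosen after their values were seen. Names were matched in a RefSeq table (GRCm38.p6), and promoters came from RefSeq. Same-numbered arrays did not deviate together. The correlations of their deviations were -0.663 for GFP shRNA with Prmt6 shRNA1, 0.111 for GFP shRNA with Prmt6 shRNA2 and -0.337 between the Prmt6 hairpins. A negative value means that same-numbered arrays deviated in opposite directions. With 2 arrays per group, their deviations from the group mean are equal and opposite. Each correlation therefore holds with its sign turned for arrays of different numbers. GFP shRNA and Prmt6 shRNA1 arrays of different numbers thus deviated in the same direction. Whether such arrays were handled together was not tested, and the main model used no pairing. The alternatives were other normalizations, filters, probe choices and variance models, a replicate block, and leaving out each array.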

Additional observations from a re-analysis of the deposited data

How the results depend on the processing

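Across 17 alternatives, 6 of which left out 1 array, no member probe was called higher in any comparison, and 36 named probes gave 587 refits of which 3 were called. The median with both hairpins was -0.06 with no filter on dim probes (0 over all probes) and -0.14 with the brightest probe of each gene, and -0.26 to -0.13 leaving out 1 array. With Prmt6 shRNA1 it was -0.08 with no filter and -0.33 to -0.17 leaving out 1 array. With Prmt6 shRNA2 it was -0.08 with median scaling, -0.10 with the authors' deposited log2 values, -0.03 with no filter and -0.09 with the brightest probe, and -0.21 to -0.07 leaving out 1 array. For shRNA2 minus shRNA1 it was 0.03 with cyclic loess, 0.16 with median scaling and 0.03 with no filter, and 0.02 to 0.23 leaving out 1 array. With first-series probes alone 1 member probe was called lower with both hairpins and 1 with shRNA2, where 34 and 25 of all 6852 such probes were. Leaving out 1 array, member probes called lower numbered 0 to 2 with both hairpins, 0 to 2 with shRNA2 and 0 to 1 between the hairpins. The counts above 0 came without Prmt6 shRNA2 replicate 1, where 556, 735 and 646 of all probes were called lower. Member probes wholly below the controls numbered 17 to 34 with both hairpins, 31 to 47 with shRNA1 and 22 to 45 with shRNA2 leaving out 1 array, and 15 of 40 with shRNA2 on the brightest probe of each gene. The share over all tested probes moved as well. Across the 17 alternatives it was 5.91% to 26.6% with both hairpins, 15.1% to 40% with shRNA1 and 16.8% to 40.4% with shRNA2. The count with both hairpins was 34 without GFP shRNA replicate 2, where 26.6% of all probes were below. The cause of these shifts was not tested. With the replicate block 0 member probes were called with both hairpins. That block cannot move the median of -0.21, because every group holds 1 array of each number. It changes only the spread and the p-values. The number of arrays and, for dim probes, signal over background limit what can be seen.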

Other observations

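The 5 kept probes of member genes that bear other names on the array, and so were not members, were 2 of Srsf11 at -1.53 ± 1.04 and -0.66 ± 0.42, and 1 each of Srsf7 at -1.63 ± 1.19, Sfswap at -0.34 ± 0.20 and Sf3a3 at -0.38 ± 0.15 (log2 difference of both Prmt6 hairpins against GFP shRNA, limma SE). All are second-series probes and none was called (adjusted p = 0.392 to 0.624). The member probes of Srsf11 and Sf3a3, in the first series, were at -0.10 and -0.04, and that of Srsf7 at -0.50.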
